A study of Mus musculus with 16 samples.

Results

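The E protein genes Tcf3, Tcf4 and Tcf12 and the ID protein genes Id1, Id2 and Id3 were followed through dendritic cells (DCs) of the mouse spleen. The 6 genes were found by symbol among the 17128 genes listed for plasmacytoid DCs (pDCs) and the 17721 genes listed for conventional DCs (cDCs), and all 6 were in both tables. Every library came from C57BL/6 mice of 6 to 8 weeks that carried floxed Trim33 alleles. Those without Cre (Trim33 fl/fl) were called wild-type (WT). Those with Cre (Trim33 fl/fl Itgax-Cre) were called conditional knockouts (cKO), since Itgax, which encodes CD11c, drives the recombinase in CD11c-expressing cells and TRIM33, a chromatin-binding regulator of transcription, is lost there. Sorting by CD11c, SiglecH, MHC II, CD24 and CD172a had separated pDCs (3 WT and 3 cKO libraries) from the conventional subsets cDC1 (2 and 2) and cDC2 (3 and 3), which made 16 RNA-seq libraries. Expression was given as TPM, the share of all transcripts of a library that come from a gene, corrected for length, and the libraries were estimated to hold 17.6 to 20.3 M reads.

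E proteins are basic helix-loop-helix transcription factors that bind E-box sequences as dimers. ID proteins have the helix-loop-helix but no basic region, so an E protein that pairs with an ID protein cannot bind DNA. In the DC lineage E2-2, the product of Tcf4, is required to form pDCs and to keep them as pDCs, whereas ID2 is high in cDCs and is needed for cDC1s. Tcf3 encodes E2A and Tcf12 encodes HEB, the other E proteins, while ID1 and ID3 are further ID proteins that in many cells follow signals of the transforming growth factor-beta and bone morphogenetic protein family.

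Trim33 served as the check of the labels. It was 61.2% of the WT mean in cKO pDCs, 46.3% in cKO cDC1s and 41.3% in cKO cDC2s, and each cKO library lay below each WT library of its subset. In limma (a linear model fitted across all genes on log2(TPM + 1), with Benjamini-Hochberg adjustment) the decrease had an adjusted p of 3.49e-04 in cDC1s and 1.26e-04 in cDC2s. In pDCs the adjusted p was 0.0301, which missed the rule used throughout (a call needs an adjusted p of 0.01 or less and a log2 fold change of 0.5 or more in size). The remaining level was not split into transcript outside the deleted part and transcript of undeleted cells. Markers of the subsets were read in the WT libraries. Siglech averaged 4981 TPM in WT pDCs and 3.46 in WT cDC1s, and Xcr1 averaged 305 in WT cDC1s and 2.34 in WT pDCs. Clec4a4 averaged 359.7 in WT cDC2s and 0.81 in WT cDC1s. Other markers did not part pDCs from cDCs as clearly. Sirpa, which encodes CD172a, averaged 298 TPM in WT pDCs and 485 in WT cDC2s. Clec9a, a cDC1 marker, averaged 220 in WT pDCs and 541 in WT cDC1s. Cd4, a cDC2 marker, averaged 1031 in WT pDCs and 312 in WT cDC2s. The replicate libraries were labelled as biological replicates. Per the study's methods each library pooled several mice, with more mice in a cKO than in a WT pool, so the spread is that between pools. In bulk libraries fewer cells of a type and less RNA per cell cannot be told apart.

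The promoters of Id2, Id3 and Tcf3 are shown as examples, because E proteins read the E-box, CANNTG. Each line holds the 250 bases before a start annotated in RefSeq for GRCm38.p6, in the direction of transcription, with each E-box in capitals. CANNTG is its own reverse complement, so a search of 1 strand covers both.
Id2 (chr12:25096093-25096342, minus strand): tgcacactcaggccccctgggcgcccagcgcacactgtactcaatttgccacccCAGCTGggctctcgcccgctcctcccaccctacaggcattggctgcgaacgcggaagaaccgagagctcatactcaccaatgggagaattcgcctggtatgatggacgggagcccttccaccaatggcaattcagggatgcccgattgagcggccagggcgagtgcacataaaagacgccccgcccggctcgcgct
Id3 (chr4:136143572-136143821, plus strand): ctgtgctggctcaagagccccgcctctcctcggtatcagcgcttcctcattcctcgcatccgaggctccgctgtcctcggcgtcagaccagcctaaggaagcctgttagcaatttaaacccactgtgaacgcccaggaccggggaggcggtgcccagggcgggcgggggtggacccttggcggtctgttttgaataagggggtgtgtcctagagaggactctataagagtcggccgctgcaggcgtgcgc
Tcf3 (chr10:80433636-80433885, minus strand): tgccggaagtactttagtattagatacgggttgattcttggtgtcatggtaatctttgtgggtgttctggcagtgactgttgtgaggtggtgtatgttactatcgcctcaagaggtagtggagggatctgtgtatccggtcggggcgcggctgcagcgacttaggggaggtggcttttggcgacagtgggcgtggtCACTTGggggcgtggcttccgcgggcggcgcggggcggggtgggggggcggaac
The Id2 window held 1 E-box, CAGCTG, 196 bases before the start. The Tcf3 window held 1, CACTTG, 54 bases before the start, and the Id3 window held none. Tcf12 has several annotated starts, and its windows are not printed. They held a CAGCTG 240 bases before a start, a CAAGTG 149 bases before another, and none before a further start. Windows of Id1 and Tcf4 were not read. The Tcf3 start used here lies inside the span of the gene and not at its outer end. Of 32851 windows of this length over all genes, 66.2% held a CANNTG and 13.0% held a CAGCTG, so these matches are common, and a match is a description and not a site of binding. The Id2 gene itself (gene ID 15902) lies at chr12:25093799-25096092, Id3 (15903) at chr4:136143822-136145392 and Id1 (15901) at chr2:152736251-152737410. Tcf3 (21423) lies at chr10:80409541-80433976 and Tcf12 (21406) at chr9:71844252-72111893.

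The levels of the members were first set side by side over the 3 subsets. The pDC and cDC tables list different genes and were normalised separately, so levels were not tested across them. Tcf4 (21413, on chromosome 18) was the E protein gene with the widest range. The WT pDC libraries held 486, 475 and 472 TPM of Tcf4, WT cDC2s 20.3, 22.4 and 19.2, and WT cDC1s 6.40 and 10.6. These groups did not overlap, and the WT pDC mean was 23.2 times the WT cDC2 mean and 56.3 times the WT cDC1 mean. Id2 ran in the opposite order. The Id2 levels were 1877 and 1313 TPM in WT cDC1s, 557, 825 and 758 in WT cDC2s, and 14.3, 15.1 and 18.0 in WT pDCs. The WT cDC1 mean was 101 times and the WT cDC2 mean 45.2 times the WT pDC mean, again with no overlap.

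**Figure D1:**
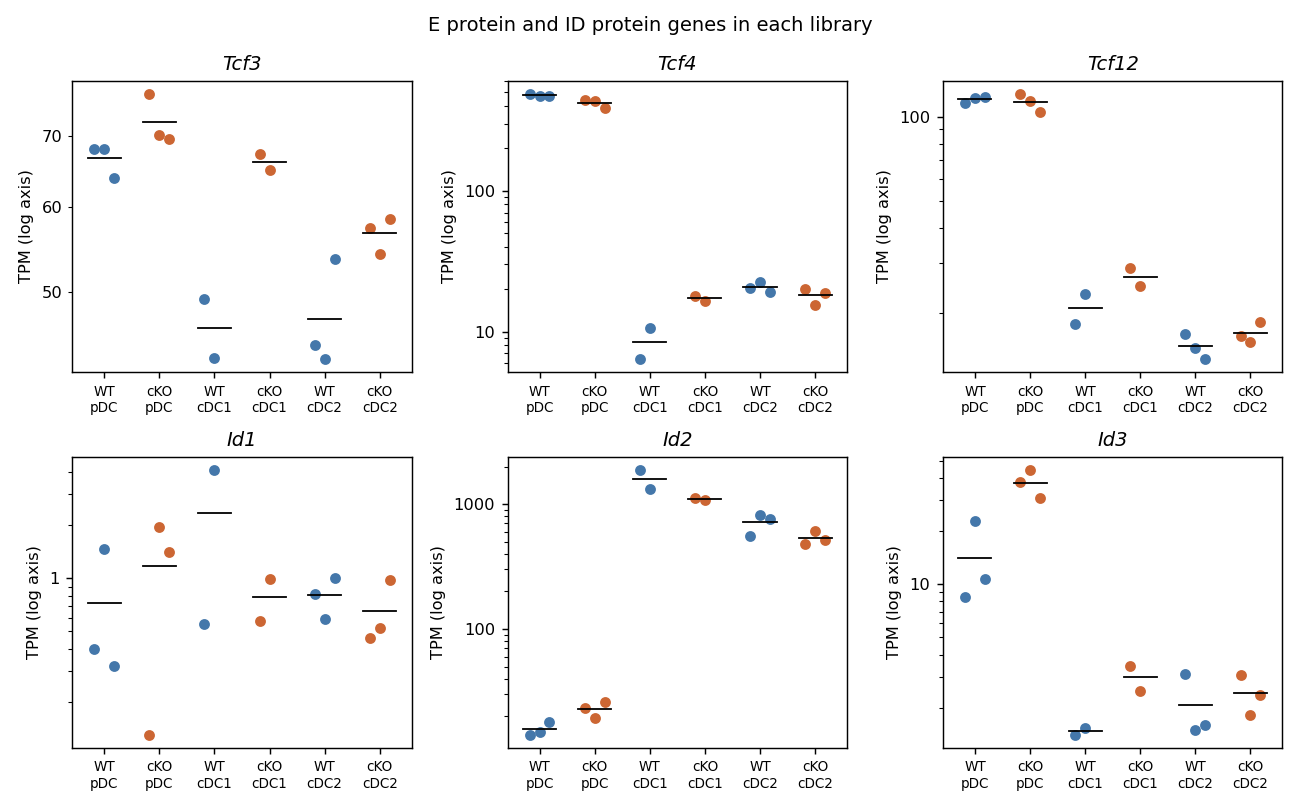
TPM of each E protein and ID protein gene in each of the 16 libraries, on a log axis whose range differs between panels. Points are libraries, blue for WT and orange for cKO, and bars are group means; Tcf4 ran from 385 to 486 TPM in pDC and from 6.40 to 22.4 in cDC libraries, and Id2 from 14.3 to 26.0 TPM in pDC and from 484 to 1877 in cDC libraries.

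The other members set pDCs apart less. Tcf12, the HEB gene, held 112, 116 and 117 TPM in WT pDCs, 18.2 and 23.4 in WT cDC1s and 16.8, 14.99 and 13.7 in WT cDC2s. Its WT pDC mean was thus 5.54 times that of WT cDC1s and 7.60 times that of WT cDC2s. Tcf3, the E2A gene, was the most even member, at 68.1, 68.2 and 63.9 TPM in the WT pDC libraries, 49.2 and 43.3 in WT cDC1s and 44.5, 43.2 and 53.7 in WT cDC2s. The 2 WT cDC groups of Tcf3 overlapped, and the WT pDC mean was 1.44 and 1.42 times theirs. Id3 was the only ID protein gene with its highest WT mean in pDCs, at 8.50, 22.7 and 10.7 TPM, against 1.41 and 1.53 in WT cDC1s and 3.1, 1.5 and 1.6 in WT cDC2s. Id1 was near the limit of detection, from 0.13 to 4.13 TPM over the 16 libraries, and 3 reads on this gene stood for 0.245 to 0.330 TPM. Its highest value was that of WT cDC1 library 2, and its groups overlapped in each comparison made.

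The make-up of each family differed accordingly. Tcf4 supplied 72.4% of the summed E protein transcripts in WT pDCs, 11.2% in WT cDC1s and 24.9% in WT cDC2s (means of library shares). Tcf3 supplied 10.1% of that sum in WT pDCs, 61.4% in WT cDC1s and 56.7% in WT cDC2s, so the leading E protein gene was Tcf4 in pDCs and Tcf3 in both cDC subsets. Id2 supplied 99.7% of the summed ID protein transcripts in WT cDC1s and 99.6% in WT cDC2s, but 54.0% in WT pDCs, where Id3 supplied 43.8%. In cKO pDCs Id3 led by mean share, with 60.6% against 37.5% from Id2. WT pDC library 2 already had that order, with 57.9% from Id3 and 38.4% from Id2.

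The balance of Tcf4 and Id2 was then taken within each library as log2(Tcf4 TPM / Id2 TPM), a ratio in which the scaling of a library cancels. It was 4.93 ± 0.19 (SD, n = 3) in WT pDCs, so Tcf4 was 30.4 times Id2. In WT cDC1s it was −7.58 ± 0.88 (SD, n = 2), with Id2 at 190.9 times Tcf4, and in WT cDC2s −5.10 ± 0.28 (SD, n = 3), with Id2 at 34.2 times Tcf4. The WT pDC mean thus lay 12.5 log2 units above the WT cDC1 mean and 10.0 above the WT cDC2 mean. In cKO libraries the same distances were 10.2 and 9.09 log2 units. No cKO library changed sides: each of the 6 pDC libraries was above 0 and each of the 10 cDC libraries was below it.

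**Figure D2:**
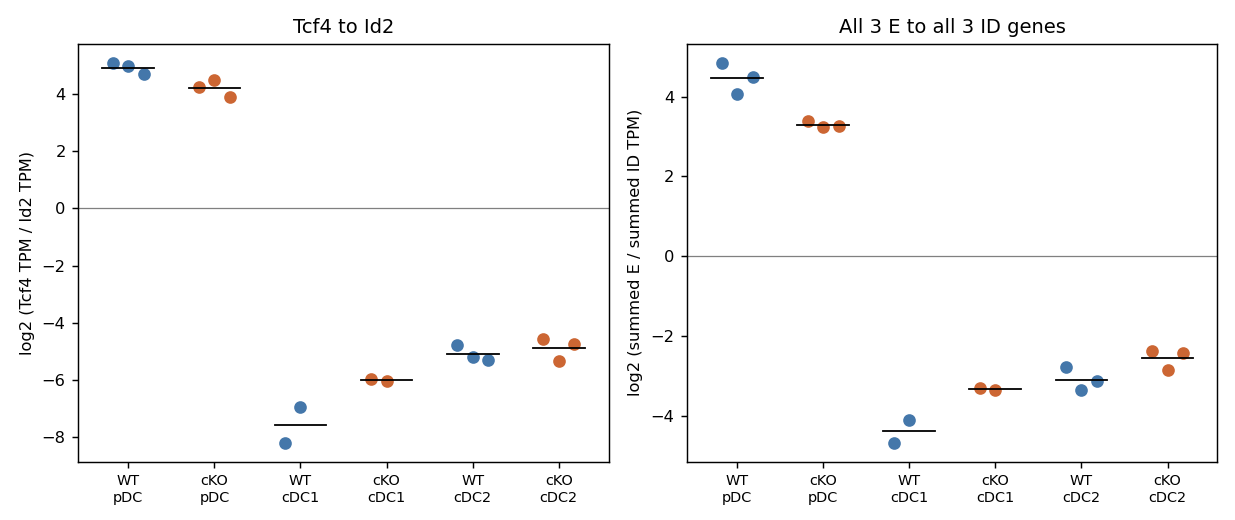
Balance in each library as log2 of a TPM ratio, for Tcf4 over Id2 (left) and for the summed E protein over the summed ID protein genes (right). Points are libraries, blue for WT and orange for cKO, bars are group means and the grey line marks equal levels; cKO pDCs lay below and cKO cDC1s above their WT libraries in both panels.

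Whether loss of TRIM33 shifts the balance was compared within each subset. In pDCs the log2 balance of Tcf4 to Id2 was 4.20 ± 0.30 (SD, n = 3) in cKO libraries, 0.72 below WT, with no overlap (exact permutation test, two-sided, p = 0.1, the smallest that 3 against 3 libraries can give). In cDC1s it was −6.00 ± 0.03 (SD, n = 2) in cKO libraries, 1.58 above WT, with no overlap (exact p = 0.333, the smallest possible for 2 against 2). In cDC2s it was −4.89 ± 0.39 (SD, n = 3) in cKO libraries, 0.21 above WT, and the groups overlapped (exact p = 0.5). The groups without overlap were thus lower in cKO pDCs and higher in cKO cDC1s. A test within 1 subset cannot reach the usual limit with so few libraries. The mean of the 3 differences was 0.35 (exact permutation test within subsets, two-sided, p = 0.405), which did not pass.

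The summed E protein to ID protein balance was compared in the same way. It was 4.47 ± 0.39 in WT and 3.29 ± 0.08 in cKO pDCs (SD, n = 3 each), −4.38 ± 0.41 and −3.33 ± 0.03 in cDC1s (SD, n = 2 each), and −3.09 ± 0.29 and −2.55 ± 0.26 in cDC2s (SD, n = 3 each). The differences were −1.17 in pDCs, 1.06 in cDC1s and 0.54 in cDC2s, with exact permutation p values of 0.1, 0.333 and 0.2, and their mean was 0.14 (exact permutation p = 0.653). In pDCs the summed E protein transcripts averaged 659.7 TPM in WT and 606 in cKO libraries, whereas the summed ID protein transcripts averaged 30.5 and 61.7. In cDC1s the E sum averaged 75.5 and 110.3 TPM and the ID sum 1599 and 1106.

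In pDCs both ID protein genes with measurable levels were higher in each cKO library than in any WT library. Id3 held 37.7, 44.3 and 30.8 TPM in the cKO libraries against 8.50, 22.7 and 10.7 in WT, where library 2 stood above the other WT libraries. Its log2 fold change was 1.47 (SE 0.31, limma adjusted p 0.0431), and 1.86 with an adjusted p of 0.00555 without WT pDC library 2. Id2 held 23.3, 19.6 and 26.0 TPM in the cKO libraries against 14.3, 15.1 and 18.0 in WT, a log2 fold change of 0.51 (SE 0.13, limma adjusted p 0.0680). As fitted, 0 of the 5 members tested were called in pDCs by limma, beside 1.05% of all 11299 genes tested, and 3 of the 5 had an unadjusted p under 0.05. At an adjusted p of 0.05 with no fold limit Id3 alone would be called, beside 4.55% of all genes. The labels state no pairing of libraries. Since the deviations of same-numbered pDC libraries correlated, the replicate number was tried as a block, on that hint from these same data. Both ID genes were then called, Id3 at a limma adjusted p of 0.00267 and Id2 at 0.00875, beside 2.96% of all genes tested. Over the 17 alternatives tried in pDCs, Id3 was called in 3 and not in 14 (limma adjusted p up to 0.162). Id2 was called in 1 and not in 16 (limma adjusted p up to 0.187). The direction of both genes held in each of these alternatives. Id1 averaged under 1 TPM and was not tested, with 0.40, 1.46 and 0.32 TPM in WT and 0.13, 1.97 and 1.42 in cKO libraries.

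None of the E protein genes passed the test in pDCs. Tcf4 held 441, 438 and 385 TPM in the cKO libraries, each below each WT library, a log2 fold change of −0.18 (SE 0.06, limma adjusted p 0.163). Tcf3 held 76.7, 70.2 and 69.6 TPM in cKO libraries, each above WT, with 0.11 (SE 0.06, limma adjusted p 0.374). Tcf12 held 120.0, 113.8 and 104.2 TPM in cKO libraries, which overlapped with WT, with −0.03 (SE 0.07, limma adjusted p 0.806). Of the members tested, 3 lay wholly higher and 1 wholly lower in cKO pDCs, while 10.8% of all genes tested lay wholly higher and 16.7% wholly lower.

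Markers of other cells were read in the same pDC libraries. The summed level of 8 T cell markers ran from 11.1 to 14.8 TPM in WT and from 30.1 to 33.5 in cKO libraries, but Cd3d, Cd3e and Cd3g were each between 0 and 0.94 TPM in every pDC library. Most of that sum was Lat, a signalling adaptor, at a mean of 5.37 TPM in WT and 15.98 in cKO libraries, and Cd5. The 8 B cell markers summed to 62.8 to 91.9 TPM in WT and 67.9 to 136 in cKO libraries, and the 7 neutrophil markers to 8.86 to 29.3 and 29.5 to 137.7. Limma called 0 of the 5 tested B cell markers (0 had an unadjusted p under 0.05), with a median log2 fold change of 0.51. It also called 0 of the 5 tested neutrophil markers (3 had an unadjusted p under 0.05), with a median of 1.40. The 8 monocyte and macrophage markers summed to 4971 to 5642 TPM in WT and 5781 to 5962 in cKO pDCs, most of it Ly6c2. Limma called 0 of the 7 tested in that list, of which 4 had an unadjusted p under 0.05, and their median log2 fold change was 0.44 against −0.05 over all genes. The 8 cycling markers summed to 217 to 291 TPM in WT and 348 to 449.6 in cKO pDCs, most of it Pcna. Limma called 5 of these 8 higher, where 1.05% of all genes were called in either direction. The median log2 fold change of the cycling list was 2.11 against −0.05 over all genes. Mki67 rose from a mean of 1.91 to 19.3 TPM and Top2a from 2.02 to 26.7, while Pcna averaged 235 and 278. The 8 cDC1 markers summed to 439 to 527 TPM in WT and 366 to 395 in cKO pDCs, and the 7 cDC2 markers to 1278 to 1469 and 1042 to 1198. Of the 5 tested in each list, limma called none for cDC1s (2 had an unadjusted p under 0.05) and Itgam for cDC2s, which encodes CD11b and rose from a mean of 1.81 to 20.3 TPM (log2 fold change 2.92, limma adjusted p 9.52e-04). The part of these cells, or of cycling, in the Id3 and Id2 values was not tested.

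**Figure D3:**
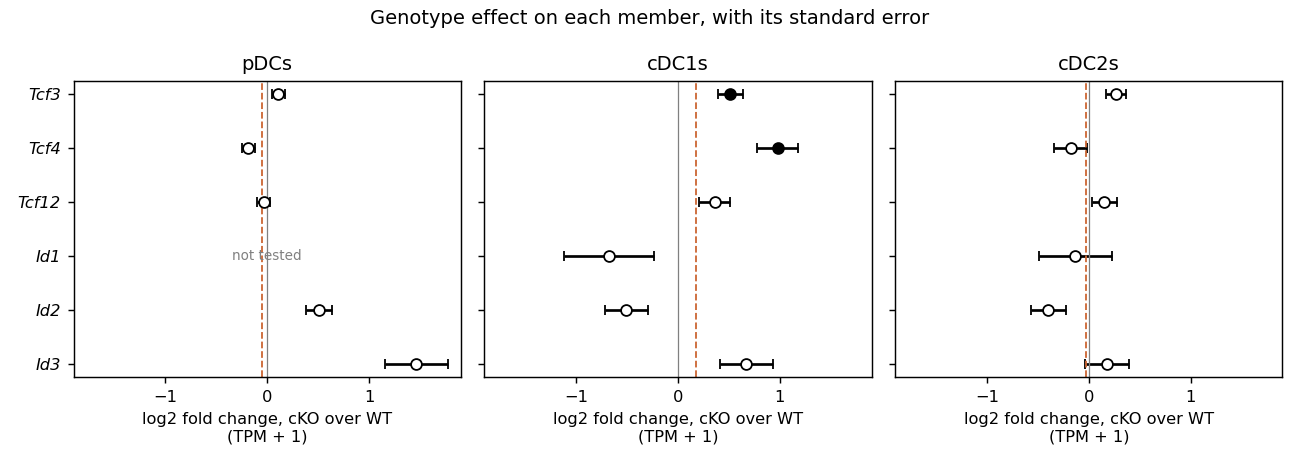
Log2 fold change of each member, cKO over WT, on the log2(TPM + 1) scale, for pDCs, cDC1s and cDC2s. Points are limma estimates with 1 standard error, filled where called (adjusted p of at most 0.01 and absolute log2 fold change of at least 0.5), and the dashed line is the median of all genes tested; only Tcf3 and Tcf4 in cDC1s are filled.

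In cDC1s all 3 E protein genes were higher in each cKO library than in any WT library, as were 52.1% of all genes tested. Limma called 2 of the 3. Tcf4 held 17.9 and 16.6 TPM in the cKO libraries against 6.40 and 10.6 in WT, a log2 fold change of 0.98 (SE 0.20, limma adjusted p 0.00389). Tcf3 held 67.4 and 65.1 TPM against 49.2 and 43.3, with 0.51 (SE 0.12, limma adjusted p 0.00820). These 2 of the 6 members were called as higher, beside 15.8% of all 11411 genes tested (22.4% in either direction). Tcf12 held 28.8 and 24.8 TPM against 18.2 and 23.4 in WT, with 0.36 (SE 0.15, limma adjusted p 0.0873), and was not called. The median log2 fold change of all genes in this contrast was 0.17, and relative to it Tcf4 was at 0.81 and Tcf3 at 0.34.

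Both calls in cDC1s sat close to the limit. Without a filter on low values the adjusted p was 0.0105 for Tcf4 and 0.0117 for Tcf3, and with median-of-ratios scaling, which moves the median of all genes to near 0, it was 0.0109 and 0.0234 at log2 fold changes of 0.82 and 0.34. Tcf4 lost its call without WT cDC1 library 1 (0.66, adjusted p 0.0268), cKO cDC1 library 1 (0.93, adjusted p 0.0363) or cKO cDC1 library 2 (1.03, adjusted p 0.0209). Tcf3 lost its call without any 1 of the 4 cDC1 libraries (0.42 to 0.60, limma adjusted p 0.0188 to 0.0615) and without any 1 of the 3 cKO cDC2 libraries (adjusted p 0.0109 to 0.0158). The direction of both genes held in all 23 alternatives, with Tcf4 between 0.66 and 1.30 and Tcf3 between 0.34 and 0.60.

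**Figure D4:**
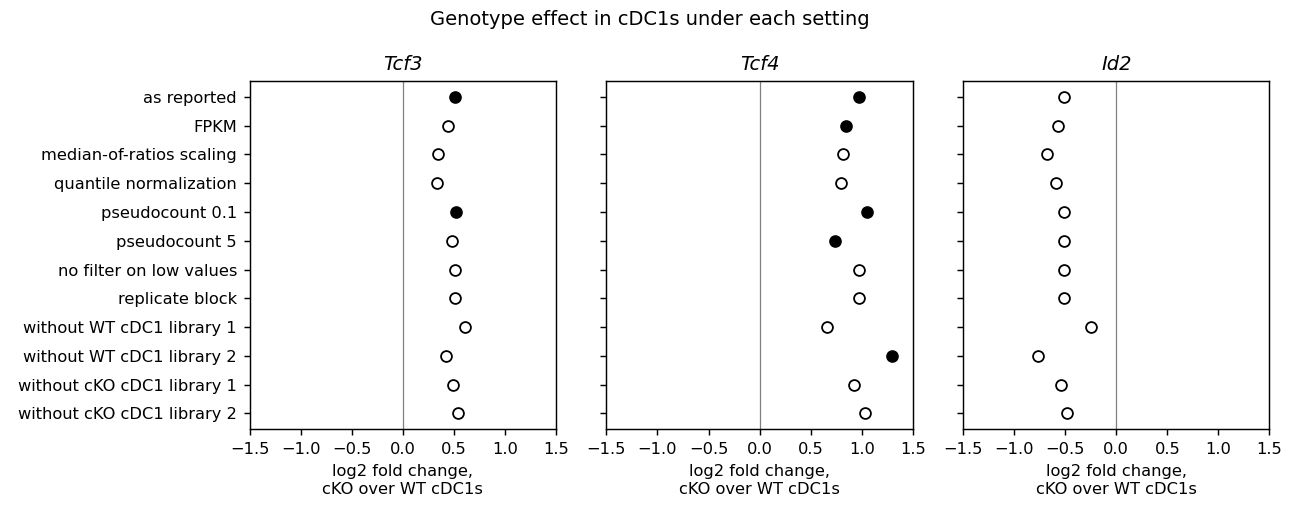
Log2 fold change of Tcf3, Tcf4 and Id2 in cDC1s, cKO over WT, as reported and under 11 other settings. Filled points were called (adjusted p of at most 0.01 and absolute log2 fold change of at least 0.5); Tcf3 and Tcf4 stayed above 0 and Id2 below 0 in each setting, and Tcf3 was called in 2 and Tcf4 in 5 of the 12 settings.

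The ID protein genes of cDC1s were not called. Id2 held 1125 and 1080.2 TPM in the cKO libraries against 1877 and 1313 in WT, without overlap, a log2 fold change of −0.51 (SE 0.21, limma adjusted p 0.0800) and −0.68 relative to the median of all genes. The WT libraries differed from each other by more than the lower of them exceeded the cKO libraries, and without WT cDC1 library 1 the log2 fold change of Id2 was −0.25. Id3 held 3.46 and 2.47 TPM in cKO and 1.41 and 1.53 in WT libraries, with 0.67 (SE 0.26, limma adjusted p 0.0674). Id1 held 0.57 and 0.99 TPM in cKO and 0.55 and 4.13 in WT libraries, with −0.67 (SE 0.44, limma adjusted p 0.250), and was called only without WT cDC1 library 1, at −1.54 (adjusted p 0.00516). Of the 6 members, 4 lay wholly higher and 1 wholly lower in cKO cDC1s, where 52.1% and 24.1% of all genes tested did so.

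Markers of other cells were read beside the cDC1 values too. The 7 pDC markers summed to 142.9 to 163 TPM in WT and 236.6 to 241 in cKO cDC1s, most of it Bst2. Of the 6 tested, Bst2 and Cox6a2 were called higher and Pacsin1 and Ccr9 lower, beside 15.8% and 6.56% of all genes. Against the WT pDC level, Tcf4 was at 1.78% in WT and 3.61% in cKO cDC1s, and Bst2 was at 3.32% and 5.47%. Cox6a2 was at 0.0404% and 1.28% of its WT pDC level, Siglech at 0.0695% and 0.167%, Ly6d at 0.0664% and 0.134%, and Klk1 at 0.0119% and 0.00256%. Ccr9 went the other way, from 3.54% to 1.72%, as did Pacsin1, from 2.26% to 0.515%.

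The markers of cDC1s themselves summed to 2604 to 2685 TPM in WT and 2006 to 2097 in cKO cDC1s. Limma called 3 of the 8 lower, where 6.56% of all genes were called lower and 15.8% higher. These were Clec9a (541 to 214 TPM), Cadm1 (194.0 to 57.5 TPM) and Itgae (69.9 to 9.86 TPM). The 8 monocyte and macrophage markers summed to 408 to 659 and 474 to 501 TPM, with Ccr2, Ly6c2 and Csf1r called higher and Vcam1 lower. Of the 7 cDC2 markers Itgam was called higher, at 1.65 TPM in WT and 10.4 in cKO cDC1s, and Cd4 and Esam lower, while the list summed to 38.5 to 38.9 and 28.3 to 32.6 TPM. The 7 neutrophil markers summed to 1.53 to 17.1 and 22.7 to 42.3 TPM, with 0 of 5 called by limma (1 had an unadjusted p under 0.05). The 8 cycling markers summed to 434 to 608 TPM in WT and 1169 to 1179.9 in cKO cDC1s. Of these 8, 6 were called higher, beside 15.8% of all genes. The part of these cells, or of cycling, in the Tcf3, Tcf4 and Id2 values was not tested.

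In cDC2s none of the members was called. Tcf4 held 20.2, 15.4 and 18.9 TPM in the cKO libraries against 20.3, 22.4 and 19.2 in WT, with overlap, a log2 fold change of −0.18 (SE 0.16, limma adjusted p 0.472). Id2 held 484, 614 and 513 TPM against 557, 825 and 758, also with overlap, with −0.40 (SE 0.17, limma adjusted p 0.133). Tcf3 was the member whose groups did not overlap, at 57.3, 54.2 and 58.6 TPM in cKO libraries, with 0.27 (SE 0.10, limma adjusted p 0.0865), where 16.3% of all genes tested lay wholly higher. Tcf12 (16.5, 15.7 and 18.5 TPM in cKO libraries), Id3 (3.07, 1.82 and 2.35 TPM) and Id1 (0.46, 0.52 and 0.98 TPM) overlapped with WT and had log2 fold changes of 0.15, 0.18 and −0.13. By limma 0 of the 6 members were called, beside 7.15% of all genes tested, and 2, Tcf3 and Id2, had an unadjusted p under 0.05. In the 22 alternatives tried, neither of these was called. Of the 7 cDC2 markers limma called 4 lower and 1 higher in cKO cDC2s, with a median log2 fold change of −1.08 against −0.03 over all genes. Of the 8 monocyte and macrophage markers 4 were called higher and 0 lower, and of the 8 cycling markers 1 was called higher. Among all genes 3.59% were called higher and 3.56% lower. The part of these cells, or of cycling, in the cDC2 values was not tested.

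Whether the genotype effect differed between the cDC subsets was tested as an interaction. For Tcf4 the cDC1 effect exceeded the cDC2 effect by 1.16 on the log2 scale (SE 0.26, limma adjusted p 0.0228), which missed the limit of 0.01 (at 0.05 with no fold limit it passed, as did 11.3% of all genes). It passed without WT cDC1 library 2, at 1.48 (adjusted p 0.00501). Over the 21 alternatives it was called in 2 and not in 19 (0.83 to 1.48, limma adjusted p up to 0.114). The other 5 members had differences of −0.54 to 0.50 with limma adjusted p values of 0.312 to 0.793. By limma 0 of the 6 members were called, beside 2.56% of all genes tested, and Tcf4 alone had an unadjusted p under 0.05.

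The cDC subsets were also compared with each other inside their shared table. In WT libraries Tcf4 was lower in cDC1s than in cDC2s, with a log2 fold change of −1.22 (SE 0.18, limma adjusted p 3.35e-04), and Id2 was higher, with 1.16 (SE 0.19, limma adjusted p 6.75e-04). These 2 of 6 members were called, 1 in each direction, beside 20.8% of all genes tested called lower and 10.9% higher (31.7% in all). Tcf4 was called in all 22 alternatives, and Id2 in 21. In cKO libraries the Tcf4 levels of the subsets overlapped, at 17.9 and 16.6 TPM in cDC1s and 20.2, 15.4 and 18.9 in cDC2s (log2 fold change −0.06, SE 0.18, limma adjusted p 0.802). The interaction above tests the change in this difference. Id2 remained higher in cKO cDC1s than in cKO cDC2s, with 1.04 (SE 0.19, limma adjusted p 0.00143), and Tcf12 was higher too, with 0.63 (SE 0.14, limma adjusted p 0.00406), against 0.43 (SE 0.14, limma adjusted p 0.0278) in WT libraries, where it was called with median-of-ratios scaling (0.61, adjusted p 0.00799) or quantile normalization (0.61, adjusted p 0.00658). These 2 of 6 members were called as higher in cKO libraries, beside 14.5% of all genes tested (28.3% in either direction). Tcf12 lost its call without either cKO cDC1 library (limma adjusted p 0.0554 and 0.0141) and without cKO cDC2 library 1 or 2 (0.0137 and 0.0144), and Id2 without either cKO cDC1 library (0.0171 and 0.0127).

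A list of 23 helix-loop-helix and cofactor genes was read in the same fits. Partners of E and ID proteins are among them, but not every gene listed encodes such a partner. In pDCs limma called 0 of 13 tested (4 had p under 0.05 before adjustment), where 1.05% of all genes were called, with a median log2 fold change of −0.03 against −0.05 over all genes. In cDC1s 3 were called higher and 3 lower, where 15.8% of all genes were called higher and 6.56% lower, with a median of −0.01 against 0.17. Myc, which encodes a growth-promoting helix-loop-helix factor, rose from 19.6 to 85.6 TPM (log2 fold change 2.09, limma adjusted p 2.42e-04), and Lyl1, which encodes an E protein partner, rose from 13.8 to 33.8 TPM (1.24, limma adjusted p 0.00115). Ssbp2, which encodes a protein that stabilises complexes of LDB1, rose from 6.54 to 14.5 TPM (1.05). Bhlhe40 fell from 53.7 to 13.0 TPM (−1.88), and Mxd4 fell by 0.93 on the log2 scale. For cDC2s limma called 0 of 13 (5 had p under 0.05 before adjustment), beside 7.15% of all genes. Between the WT subsets 2 were called higher and 3 lower in cDC1s, beside 10.9% and 20.8% of all genes. Mycl, a MYC family gene known from cDC1s, was higher in cDC1s (2.24), and Lmo2 (−1.36), Lyl1 (−1.63) and Bhlhe40 (−2.12) were lower.

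Genes that depend on E2-2 in pDCs, a list of 25, gave 1 call in pDCs, where all 25 were tested, beside 1.05% of all genes. It was Cox6a2, a subunit of cytochrome c oxidase, which rose from 1189 to 3283 TPM (log2 fold change 1.46, limma adjusted p 0.00128). The median of the list was −0.05, as over all genes. In cDC1s 6 of 21 were called higher and 2 lower, beside 15.8% and 6.56% of all genes, with a median of 0.59 against 0.17 over all genes. Cox6a2 was at 0 and 0.96 TPM in WT and 14.9 and 15.5 in cKO cDC1s. Cybb, the NADPH oxidase gene, rose from 8.39 to 23.5 TPM (1.44) and Ptprcap by 1.25 on the log2 scale, whereas Pacsin1 fell from 6.995 to 1.595 TPM (−1.61) and Ccr9, a homing receptor, from 18.2 to 8.84 TPM (−0.97). In cDC2s 2 were called higher and 1 lower, beside 3.59% and 3.56% of all genes. Cox6a2 rose from 2.84 to 37.7 TPM (3.35) and Smim5 from 4.95 to 8.97 TPM (0.76), while Tlr7, a sensor of single-stranded RNA, fell from 81.8 to 41.9 TPM (−0.95). Bst2, read above, was also among the genes of this list called higher in cDC1s. Siglech (3.46 TPM in WT and 8.335 in cKO cDC1s), Runx2 (12.2 and 18.8 TPM) and Bcl11a (88.0 and 84.8 TPM) were not. Siglech, Runx2 and Bcl11a were picked for naming after their values were seen. The effects of Pacsin1 and Ccr9 differed between cDC1s and cDC2s in the interaction test (−1.60 and −1.10, limma adjusted p 0.00740 and 0.00727).

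Known regulators of the Tcf4 and Id2 balance, a list of 17, were read in the same fits. For pDCs limma called 0 of 15 tested (2 had p under 0.05 before adjustment), beside 1.05% of all genes. For cDC1s it called 0 of 17 (5 had p under 0.05 before adjustment), beside 22.4% of all genes. In cDC2s 2 were called lower, beside 3.56% of all genes. Irf4, which is also among the cDC2 markers read above, fell from 65.1 to 29.9 TPM (log2 fold change −1.08, limma adjusted p 0.00400). Bcl6, a repressor, fell from 80.8 to 47.2 TPM (−0.77, limma adjusted p 0.00520). The regulator list had a median of −0.33 against −0.03 over all genes. Between the WT subsets 8 of the 17 were called, beside 31.7% of all genes. Irf8, the factor of cDC1 and pDC fate, averaged 1737 TPM in WT cDC1s and 34.4 in WT cDC2s, while Zeb2, a repressor of Id2, averaged 1.16 and 27.2 TPM. Irf4 (−3.37) and Klf4 (−2.23) were lower in WT cDC1s too.

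Inputs to the ID genes through SMAD factors made a list of 18 that includes Trim33. In pDCs limma called 0 of 16 tested (4 had p under 0.05 before adjustment), beside 1.05% of all genes. For cDC1s 3 of 16 were called lower, beside 6.56% of all genes, and none higher. Besides Trim33, Smad3 fell from 11.6 to 5.13 TPM (log2 fold change −1.04, limma adjusted p 0.00540) and Tgfbr1, a receptor of transforming growth factor-beta, from 18.8 to 10.5 TPM (−0.79, limma adjusted p 9.05e-04). In cDC2s Trim33 was the only one called, lower, beside 3.56% of all genes. Of 7 genes for turnover of ID proteins, none was called in pDCs or cDC2s by limma (1 and 3 had p under 0.05 before adjustment). The shares of all genes called there were 1.05% and 7.15%. In cDC1s 2 were called higher and 2 lower, beside 15.8% and 6.56% of all genes. Skp2, a ubiquitin ligase subunit of the cell cycle, rose from 4.88 to 13.0 TPM (1.25) and Usp1, a deubiquitinase that stabilises ID proteins, from 41.3 to 91.8 TPM (1.14), while Asb2 (−0.92) and Dyrk1b (−0.64) fell.

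The genes whose levels ran most like those of the members over the 16 libraries were ranked by Pearson r of log2(TPM + 1), among 10591 genes. The r values are descriptions, since most of the spread they rest on lies between pDCs and cDCs and the libraries share tables and subsets. For Tcf4 they were Runx2, Rell1, Erbb3, Tubgcp5 and Maged1 (r = 0.996 to 0.995), and for Id2 Cd9, Tspan33, Cdk14, Adam8 and Parp12 (r = 0.997 to 0.991). Runx2 averaged 626 TPM in WT pDCs, 12.2 in WT cDC1s and 20.4 in WT cDC2s. For Tcf12 they were Cd209d, Tex2 and Ralgps2, for Tcf3 Mllt1, Eif3d and Med25, and for Id3 Rnf187, Thy1 and Chchd10 (r = 0.978 to 0.953), whereas Id1 reached only 0.740, with Gnal. Within the 10 cDC libraries other genes led, Xpo4, Lmbrd2, Alcam, Lactb2 and Tnfrsf13c for Tcf4 (r = 0.978 to 0.964) and Gnb4, Snapc1, Cd1d1, H2-M5 and Strip2 for Id2 (r = 0.982 to 0.972).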

How the data were processed

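Libraries of 16 sorted spleen DC samples were sequenced as single-end 50-base reads. The authors filtered reads with SOAPnuke, mapped them with Bowtie2 2.2.5 and estimated expression with RSEM 1.2.12 (HISAT2 2.0.4 on mm10 made their alignments). The release of the transcript reference is not given in the sources used here. TPM values, deposited by the authors in a pDC and a cDC table, were used throughout. FPKM values, also deposited by the authors, served for depth and as an alternative. No value column lacked a sample.

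The members and lists were chosen with earlier results of these data known. All members were named, and up to 5 called genes of each list per contrast, with a further 3 genes of the E2-2 list named after their values were seen. Gene IDs were matched to RefSeq GRCm38.p6 (17079 of 17128 genes in pDCs, 17667 of 17721 in cDCs). Genes averaging 1 TPM or more were fitted on log2(TPM + 1), a scale that understates the changes of low genes, with limma 3.58.1 in R 4.3.3 (trended eBayes, two-sided, Benjamini-Hochberg). The authors used a count model for these cells, which TPM does not allow; their thresholds were kept. The pDC fit held 6 libraries and the cDC fit 10, as 4 group means with a shared spread. Balances were tested by exact permutation of genotype within subsets (2400 arrangements; scipy 1.17.1, Python 3.11.15).

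Depth was read from the steps of low FPKM values, a method that erred by at most 0.560% on simulated libraries, and its floors cover counting error only, since reads carry no molecular identifiers. Replicates correlated at r = 0.991 to 0.997 across genes, which are not independent replicates, and no libraries were identical. On simulated data with 200 changed genes the pDC fit found 89.7% of changes of 1 log2 unit, the cDC1 fit 64.5% and the cDC2 fit 75.5%. The interaction of the cDC subsets found only 37.5%. Low genes were not among those changed, so these rates do not cover a gene such as Id1. Deviations of same-numbered WT and cKO pDC libraries correlated at 0.310, 0.392 and 0.206, so the numbers were taken to pair the pDC libraries, as a hint from the data. The numbers did not pair the cDC libraries. Alternatives were another pseudocount (0.1 or 5), filter, scaling, unit, threshold, replicate block, sample set, and each library left out.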

Additional observations from a re-analysis of the deposited data

Results flagged for a closer look

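The cKO minus WT differences in the balance of Tcf4 to Id2 had opposite signs in pDCs and cDCs, though the cDC2 groups overlapped. The permutation used below assumes no genotype effect in any subset. Its p values thus do not test whether the effects in pDCs and cDCs were equal. The difference in pDCs (−0.72) minus the mean of those in cDC1s (1.58) and cDC2s (0.21) was −1.61 on the log2 scale (exact permutation of genotype within subsets, two-sided, p = 0.005, where the smallest possible p is 0.000833). Leaving out each library in turn gave −1.92 to −1.30, with exact permutation p values up to 0.0142.

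The summed E protein to ID protein balance gave −1.97 for the same contrast (exact permutation test, two-sided, p = 0.00167), with −2.17 to −1.79 and p values up to 0.0025 when 1 library was left out. This contrast was chosen after the values had been seen, the sums share Tcf4 and Id2 with the first balance, and the pDC and cDC libraries differ in their table and sort.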

How the results depend on the processing

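The mean of the 3 cKO minus WT differences ran from 0.15 to 0.56 for the Tcf4 to Id2 balance and from 0.04 to 0.24 for the summed balance without 1 library, and neither passed. Of the counts and balances recomputed, 136 were scored as the same and 29 as moved, for which the cause was not tested. The score of same allowed small changes of a count, such as from 2 to 3 members. It also allowed any change of a balance that kept its sign and still did not pass. Members called in pDCs numbered 0 as fitted, 1 (Id3) at an adjusted p of 0.05 with no fold limit, 2 with the replicate block, and 0 to 1 without 1 library. In cDC1s they numbered 2 as fitted, 1 with a pseudocount of 5, FPKM, no mean-variance trend or that subset alone, 0 with no filter, median-of-ratios, quantile normalization, a log2 limit of 1 or the replicate block, and 0 to 2 without 1 library. Crossing the cDC1 numbers, an alternative chosen after seeing the data because same-numbered libraries correlated at −0.233, gave 1. In cDC2s the count was 0 without any 1 library. The interaction gave 1 at an adjusted p of 0.05 with no fold limit and 0 to 1 without 1 library. WT cDC1s against cDC2s gave 2 as fitted, 3 with median-of-ratios, quantile normalization or an adjusted p of 0.05 with no fold limit (Tcf12 added), 1 with the replicate block and 2 to 3 without 1 library, and the cKO comparison gave 1 at a log2 limit of 1, 0 with the block and 0 to 2 without 1 library. The cDC numbers marked no pairing.

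Signs changed where values were near 0. Tcf12 in pDCs went to 0.00474 (median-of-ratios) and ran from −0.081 to 0.021 (highest without cKO pDC library 3) without 1 library, and its interaction to −0.00509 (median-of-ratios). The Id2 interaction ran from −0.37 to 0.15 without 1 library, above 0 without WT cDC1 library 1 or WT cDC2 library 1 (0.056). Between WT cDCs Tcf3 went to 0.041 (FPKM), 0.17 (median-of-ratios), 0.10 (quantile) and 0.072 (replicate block), and ran from −0.11 to 0.072 without 1 library, above 0 without WT cDC1 library 2 or WT cDC2 library 3, and Id3 to 0.0033 (quantile). Between cKO cDCs Id1 ran from −0.061 (without cKO cDC1 library 2) to 0.28 and Tcf4 from −0.17 to 0.012 (without cKO cDC2 library 1). Depth limits Id1, which rests on about 1.23 to 45.5 reads a library.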

Other observations

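The lists were also compared between the WT cDC subsets, where limma called 10.9% of all genes higher and 20.8% lower in cDC1s. Of the 21 tested genes that depend on E2-2 in pDCs, 4 were called higher and 9 lower in WT cDC1s than in WT cDC2s, with a median log2 fold change of −0.68 against −0.17 over all genes. Cybb (−4.46), Tlr7 (−3.90), Lair1 (−3.72) and Spib, an ETS factor of pDCs (−2.64), were lower in cDC1s. Irf8 (5.67) was higher. In cKO libraries 3 were higher and 6 lower in cDC1s, beside 14.5% and 13.8% of all genes, with a median of −0.04 against 0.05 over all genes.

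Of the 16 tested inputs to the ID genes through SMAD factors, 2 were called higher and 6 lower in WT cDC1s than in WT cDC2s. Smad7, which encodes an inhibitory SMAD, was lower (−1.65), as were Acvr2a (−1.18) and Smad1 (−0.90), while Smad3 (1.43) and Acvr1, a receptor gene (0.87), were higher. In cKO libraries 1 was higher and 5 lower. All calls are from limma at the limits of the report.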
